A study of Caenorhabditis elegans with 79 samples.

Results

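The genes described here are 62 sperm genes of the nematode Caenorhabditis elegans, measured as polyadenylated RNA in whole animals. They were chosen by name and level: genes called msp-, msd-, ssp-, sss-, nspd-, spe- or fer-, plus gsp-3 and gsp-4, whose mean over the 12 mRNA libraries was at least 1 FPKM (fragments scaled to transcript length and to the size of the library, so that genes can be compared). The deposited values are labelled as normalized counts and were assumed to be FPKM. Of 21976 genes in the deposited mRNA table, 85 carried one of these names and 62 reached the level, among 12378 genes that reached it in all. The members were 27 of 35 msp genes, 11 of 12 ssp genes, 9 of 12 nspd genes, 9 of 17 spe genes, 2 of 4 msd genes, both sss genes, and both gsp-3 and gsp-4. Of the names left out, 7 were listed at 0 in every library and 16, among them the single fer gene fer-1, lay above 0 with a mean under 1.

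Spermatogenesis in a hermaphrodite takes place in the last larval stage, after which the germ line switches to oocytes and the sperm are stored. Major sperm protein (MSP), made from a large family of near-identical genes, builds the cytoskeleton by which the crawling sperm moves and also serves as a signal to oocytes. During differentiation MSP is packed into an organelle, the fibrous body-membranous organelle, on which several SPE proteins act. Other SPE proteins act at sperm activation, at contact with the egg or in the embryo. HRDE-1, also listed as wago-9, is a nuclear Argonaute protein that carries small RNAs and silences germline genes across generations, and MORC-1 is a GHKL-type ATPase that acts on chromatin.

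The study asked what morc-1 does to small RNA, mRNA and histone methylation over generations, with wild type and hrde-1 as controls. Groups were the wild type strain N2 (WT), morc-1(tm6048) and hrde-1(tm1200), with 2 mRNA libraries each in an early generation (F1) and a late one (F4). All were fed OP50 bacteria and were grown at 25 °C from the P0 generation on, after earlier generations at 20 °C. The labels give both "young adult" and "gravid hermaphrodites" for the animals, name the alleles without saying what they remove, and do not say whether replicates were separate cultures, so a p-value here weighs differences only against the spread of the libraries, which may be technical.

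In the early generation the mRNA of morc-1 itself stood at 54.2 and 54.9 FPKM in WT against 14.1 and 13.7 FPKM in the mutant, and in the late one at 36.2 and 24.3 against 12 and 9.77 FPKM. Every morc-1 library was thus under every WT library, although neither difference passed limma's test (adjusted p = 0.109 early and 0.144 late). The table lists hrde-1 as wago-9, and the late libraries read 102 and 97.2 FPKM for WT and 81.1 and 68.5 FPKM for the mutant, so its mRNA level does not by itself check the hrde-1 labels. FPKM summed to between 962760 and 1403960 per library, and the read depth behind the values is unknown. Markers of oocytes and of the germ line in general were present in every library, as were those of intestine, muscle and neurons, while the male markers pkd-2 and lov-1 were at or near 0 throughout. Of 13 male genes listed, only 2, her-1 and swm-1, averaged at least 1 FPKM. The 13 summed to 35.9 and 47.1 FPKM in WT early and 118 and 91.0 in hrde-1 late, with the other groups between.

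Members ranged in mean level from 1.39 FPKM (spe-26) to 113 FPKM (msp-76), with a median of 21.2 FPKM, and 44 of the 62 had a mean of at least 10 FPKM. By family the median of these mean levels was 61.0 FPKM for msd, 33.3 for msp, 29.4 for sss, 27.4 for nspd, 19.6 for ssp, 11.3 for gsp-3 and gsp-4 and 4.20 for spe. The genes just inside the limit included spe-26 at 1.39 and msp-19 at 2.12 FPKM, and those just outside it were spe-12 at 0.904, spe-27 at 0.785 and msp-79 at 0.774 FPKM. In RefSeq's genes of assembly WBcel235, which matched all 62, 29 members lie on chromosome IV, 14 on II, 11 on I, 4 on III and 4 on V. The msp members were on IV (15) and II (12) only. In 4 places members were next neighbours: msp-31 with msp-152, msp-63 with msp-142, msp-81 with msp-10, and sss-1 with msp-77. RefSeq lists sss-2 as a pseudogene. Copies of msp and nspd genes are nearly identical, and how reads shared between them were assigned is not given in the sources used here, so a single copy's level is less certain than its family's sum.

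Before any comparison, 2 of the 12 libraries stood apart in these genes. WT late replicate 1 held the lowest level of all 12 libraries in 49 of the 62 members, and 7 members were listed at 0 in it. At the other end, hrde-1 late replicate 2 held the highest level in 54 of the 62. Within WT late the second replicate exceeded the first by a median of 2.44 over members on the log2(FPKM + 1) scale, against -0.38 over all 12378 genes. Within hrde-1 late that difference was 1.65 for members and -0.49 for all genes. In the other 4 groups the replicates differed by medians of -0.38 to 0.37 over the members. Counts and medians that rest on these libraries are given below with and without them.

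**Figure D1:**
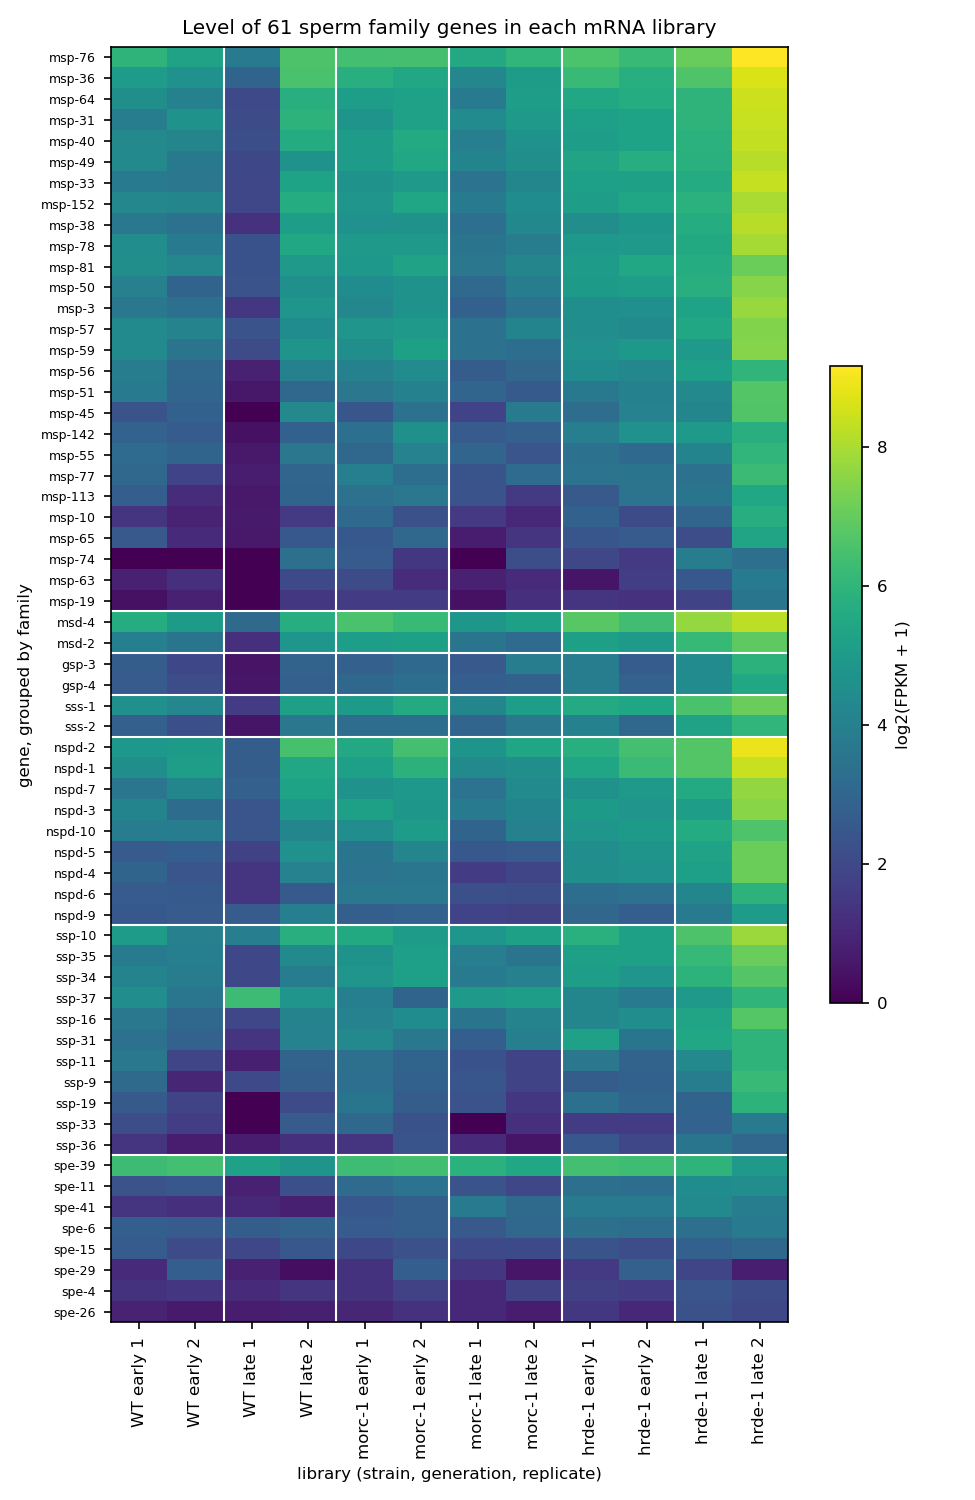
Level of 61 of the 62 members (rows, grouped by family) in each of the 12 mRNA libraries (columns, replicates side by side), coloured by log2(FPKM + 1). Dark blue is low and yellow high: WT late replicate 1 holds the lowest level in 49 rows and hrde-1 late replicate 2 the highest in 53.

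Summed over the 62 members, WT read 836 and 659.6 FPKM early, then 271 and 1387 late. In morc-1 it was 1249.6 and 1446 FPKM early and 615 and 839.6 FPKM late. The hrde-1 libraries held 1494 and 1478 FPKM early and 2470.4 and 8265 FPKM late. Both hrde-1 late libraries therefore exceeded the other 10, both early mutant groups exceeded WT early, and the morc-1 late libraries lay between the 2 WT late libraries. As a share of a library's total these sums came to 0.0664% ± 0.00904 (SD, n = 2) for WT early, 0.0642% ± 0.0596 (SD, n = 2) for WT late, 0.1199% ± 0.0133 (SD, n = 2) in morc-1 early, 0.0747% ± 0.0154 (SD, n = 2) in morc-1 late, 0.132% ± 0.00617 (SD, n = 2) in hrde-1 early and 0.420% ± 0.239 (SD, n = 2) in hrde-1 late. In whole animals, more cells that hold sperm RNA and more of it per cell cannot be told apart.

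**Figure D2:**
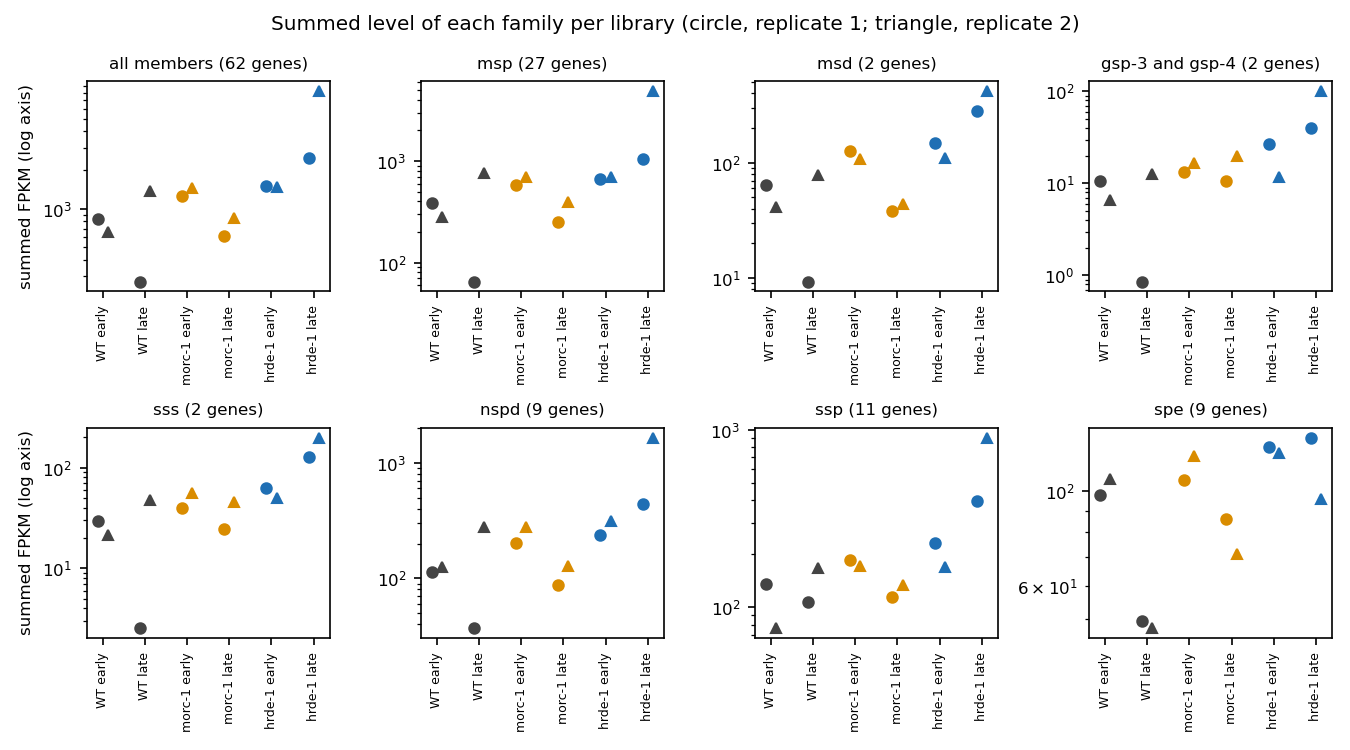
Summed FPKM (log axis) of all members and of each family in the 12 mRNA libraries, by strain and generation; circles are replicate 1 and triangles replicate 2. In the sum over all members both hrde-1 late libraries, at 2470.4 and 8265 FPKM, lie above every other library, whereas the spe family stays between 47.7 and 134 FPKM.

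In hrde-1 late animals the sperm genes were higher than in WT late animals in nearly every family. The comparison was made with limma, a linear model that moderates each gene's variance, on log2(FPKM + 1), a scale on which the change of low genes is understated; a gene is said to have risen or fallen where its p, adjusted over all 12378 genes, was under 0.05. By this test 27 of the 62 rose and none fell, where 7.21% of all genes tested rose and 1.42% fell. The median log2 change was 3.00 over the members and 0.13 over all genes, and 61 of 62 changes were above 0. In 55 members both hrde-1 late libraries were above both WT late libraries, against 23.2% of all genes. Those that rose were gsp-3 and gsp-4, msd-2 and msd-4, sss-1 and sss-2, 6 of 11 ssp genes, 4 of 9 nspd genes, 8 of 27 msp genes and 3 of 9 spe genes. The level limit for members was a mean that included hrde-1 late, so a low gene could reach it through that group, as spe-26 did.

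That count depends on the libraries named above. For the omissions, quantile normalization and the fit to 2 groups, the shares of all genes called are not given here. Those counts alone therefore do not set the members apart from all genes. Without WT late replicate 1, 8 members rose, and without hrde-1 late replicate 2, 6 did, whereas without WT late replicate 2 the count was 53 and without hrde-1 late replicate 1 it was 31. Without both WT late replicate 1 and hrde-1 late replicate 2, a setting chosen after seeing the data, 7 members rose, the median change over members was 0.85 against 0.63 over all genes, and 59 of 62 changes were above 0. That setting sets the lower hrde-1 late library against the higher WT late one, and these carry different replicate numbers. Between same-numbered late libraries the median over members was 3.40 for replicate 1 and 2.46 for replicate 2, each with 61 of 62 above 0. Over all genes it was 0.19 and 0.09. The labels do not say whether the numbers pair libraries. The 4 members that rose whichever single library was left out were spe-11, spe-41, nspd-6 and ssp-34. Shifting each library to an equal median over all genes left 8 rises, with a median of 2.74 over members and -0.13 over all genes; over all genes it turned 893 rises and 176 falls into 516 and 430. Quantile normalization left 9 rises, and a fit to the 2 groups alone left 1, spe-41.

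**Figure D3:**
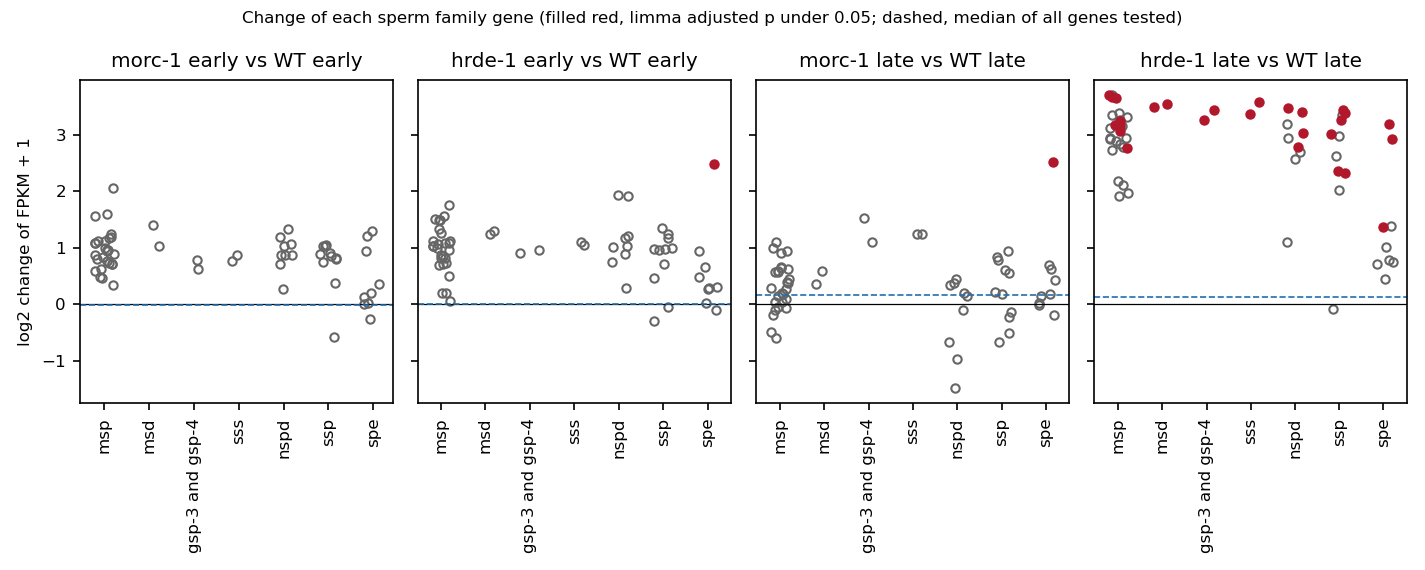
Change of each member on the log2(FPKM + 1) scale, by family, in each mutant against WT of the same generation; red points passed limma's adjusted p threshold and the dashed line is the median over all genes tested. In hrde-1 late against WT late the members' median is 3.00 and 27 points are red, against 1, 1 and 0 in the other 3 panels.

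Taken by role, the cytoskeletal genes come first. The sum over 27 msp genes was 65.0 and 759 FPKM for WT late, 253 and 397 for morc-1 late, and 1051 and 4889.7 for hrde-1 late. Early libraries held 386 and 283 FPKM (WT), 577 and 696 (morc-1), and 664 and 700.1 (hrde-1). WT late thus held both the lowest of the 12 sums and the highest outside hrde-1 late. In 24 of the 27 genes both hrde-1 late libraries were above both WT late ones, against 23.2% of all genes. The most abundant copy, msp-76, stood at 61.7 and 38.2 FPKM early and 12.5 and 95.4 late in WT, 85.0 and 86.9 early and 45.7 and 64.7 late in morc-1, and 93.8 and 70.6 early and 131 and 572 late in hrde-1. Its hrde-1 late libraries were above all others, but the log2 change from WT late of 2.93 ± 0.84 (SE) did not pass limma's test (adjusted p = 0.0629).

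Further msp copies showed the same order of libraries at lower levels. For msp-49 the WT late libraries read 2.95 and 24.4 FPKM and the hrde-1 late ones 55.5 and 292 (log2 change 3.68 ± 0.86 SE, limma adjusted p = 0.0248). For msp-142 they read 0.340 and 6.19 against 29 and 54.5 FPKM, and the log2 change of 3.72 ± 0.71 (SE) was the highest among the 62 (limma adjusted p = 0.0106). A change of like size in msp-38, 3.71 ± 1.07 (SE), from 1.47 and 34.2 to 50.6 and 287 FPKM, had an adjusted p of 0.0643 in limma. The next 2 copies by level, msp-36 and msp-64, had log2 changes of 2.89 and 3.32, neither of which passed (adjusted p = 0.112 and 0.105 in limma). At the low end, msp-19 went from 0 and 1.82 FPKM to 2.63 and 10.8 FPKM (limma adjusted p = 0.0808).

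Both msd members, which encode proteins with the MSP domain, rose in hrde-1 late. The level of msd-4 was 49.7 and 30.5 FPKM early and 7.97 and 51.1 late in WT, 92.3 and 71.4 early and 27.6 and 35.7 late in morc-1, and 110.5 and 80.4 early and 211 and 300.1 late in hrde-1. WT late and morc-1 late overlapped, and the hrde-1 late libraries stood clear of every other (29.5 ± 30.5 against 255 ± 63.1 FPKM, SD, n = 2 each; log2 change 3.55, limma adjusted p = 0.00910). The lower msd-2 changed by 3.49 ± 0.85 (SE), from 1.39 and 27 to 70.1 and 117 FPKM (limma adjusted p = 0.0311).

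The sperm phosphatases gsp-3 and gsp-4 are type 1 protein phosphatases. The level of gsp-3 was 5.49 and 3.01 FPKM early and 0.388 and 6.61 late in WT, 6.07 and 7.79 early and 4.95 and 13.7 late in morc-1, and 13.4 and 5.41 early and 20.2 and 57.6 late in hrde-1. Only the hrde-1 late libraries, with a log2 change of 3.44 ± 0.81 (SE) from WT late, were clear of the other groups (limma adjusted p = 0.0265). Its close relative gsp-4 went from 0.471 and 5.95 to 20.2 and 43.4 FPKM, a log2 change of 3.26 ± 0.66 (SE; limma adjusted p = 0.0138). Summed, the pair came to 0.859 and 12.6 FPKM (WT late) and to 40.4 and 101 FPKM (hrde-1 late).

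Among the organelle and meiosis genes of the spe family, levels were low and few changed. For spe-26, which encodes a kelch repeat protein, WT late read 0.633 and 0.744 FPKM and hrde-1 late 3.81 and 2.95 FPKM, and it rose (log2 change 1.37 ± 0.29 SE, limma adjusted p = 0.0179). Its mean of 1.39 FPKM over the 12 libraries includes these hrde-1 late values. Without them its mean lies under 1 FPKM, so it is a member only through the group in which it rose. Its rise is counted above but is not independent of the rule that chose it. The presenilin family gene spe-4 read 1.18 and 1.58 FPKM in WT late and 4.38 and 3.22 FPKM in hrde-1 late, and the casein kinase 1 family gene spe-6, which acts in MSP assembly, read 5.45 and 6.57 against 9.54 and 12.7 FPKM. In both the libraries did not overlap, but the log2 changes of 1.01 and 0.78 did not pass limma's test (adjusted p = 0.102 and 0.178). The myosin VI gene spe-15 had a log2 change of 0.71 (limma adjusted p = 0.274).

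A different pattern held for spe-39, a vesicle trafficking gene also used in somatic cells and by far the most abundant spe member. Its level was 76.5 and 84.6 FPKM early and 36.7 and 25.8 late in WT, 78.6 and 83.3 early and 56.9 and 44.4 late in morc-1, and 84.1 and 79.0 early and 61.6 and 29.3 late in hrde-1. All 6 early libraries were above all 6 late ones, and the 2 libraries that stood apart in other members did not do so here. The change from WT late to hrde-1 late was 0.45 ± 0.34 on the log2 scale (SE; limma adjusted p = 0.589). The sperm activation gene spe-29 likewise did not pass (log2 change 0.75 ± 0.70 SE, limma adjusted p = 0.684), with 0.799 and 0.259 FPKM in WT late and 2.76 and 0.696 in hrde-1 late.

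The clearest changes among spe genes were in spe-11 and spe-41. The product of spe-11 is carried by the sperm and needed by the embryo. Its level was 4.07 and 4.56 FPKM early and 0.782 and 3.72 late in WT, 8.26 and 10.3 early and 4.08 and 2.91 late in morc-1, and 9.33 and 9.03 early and 21.2 and 21.3 late in hrde-1. The 2 hrde-1 late libraries were nearly equal for this gene and above all others (2.25 ± 2.08 against 21.2 ± 0.0979 FPKM, SD, n = 2 each; log2 change 2.94, limma adjusted p = 0.00370).

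The nspd genes encode small nematode-specific peptides of family D. Their sum was 37 and 276 FPKM in WT late and 442 and 1660.1 in hrde-1 late. The level of nspd-6 was 5.25 and 5.09 FPKM early and 1.69 and 5.11 late in WT, 11.6 and 11.6 early and 3.72 and 3.56 late in morc-1, and 8.84 and 9.98 early and 17.4 and 59.2 late in hrde-1. In this gene early mutants, at 8.84 FPKM and above, and hrde-1 late libraries were all above every WT library (hrde-1 late against WT late 3.04 ± 0.53 SE on the log2 scale, limma adjusted p = 0.00771). The most abundant member, nspd-2, was 5.58 and 89.6 FPKM in WT late and 104 and 479 FPKM in hrde-1 late, a log2 change of 3.20 ± 1.04 (SE) that did not pass (limma adjusted p = 0.102). Of the next 2 by level, nspd-1 rose (3.47, limma adjusted p = 0.0232) and nspd-7 did not pass (2.58, limma adjusted p = 0.0857).

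The ssp (sperm-specific, class P) genes rose in 6 of 11 cases: ssp-10, ssp-11, ssp-16, ssp-34, ssp-35 and ssp-36. The level of ssp-34 was 16.1 and 13.3 FPKM early and 2.94 and 13.6 late in WT, 26.6 and 35.8 early and 12.3 and 14.8 late in morc-1, and 33.4 and 26.4 early and 59.3 and 105 late in hrde-1. Both early mutants exceeded WT early, morc-1 late fell back among the WT libraries, and hrde-1 late exceeded all (8.26 ± 7.53 against 82.2 ± 32.3 FPKM in WT late and hrde-1 late, SD, n = 2 each; log2 change 3.40, limma adjusted p = 0.00504). The change of ssp-35 was 3.44 ± 0.62, of ssp-10 2.36 ± 0.61 and of ssp-36 2.33 ± 0.44 (log2 ± SE; limma adjusted p = 0.00863, 0.0382 and 0.0103).

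One ssp gene showed no clear difference between hrde-1 late and WT late. For ssp-37 the libraries read 21.6 and 11 FPKM early and 77.5 and 26.5 late in WT, 14.7 and 6.71 early and 29.8 and 33.4 late in morc-1, and 17.6 and 12.7 early and 29.2 and 62.6 late in hrde-1. It was the single member with its highest level in WT late replicate 1, the library that was lowest in most others, and the single one below 0 in hrde-1 late against WT late (-0.08 ± 0.57 SE on the log2 scale, limma adjusted p = 0.972). Both sss (sperm-specific, class S) genes rose, sss-1 from 2.11 and 36.3 to 91.0 and 134 FPKM (limma adjusted p = 0.0411) and sss-2 from 0.435 and 11.3 to 37.7 and 65.1 FPKM (limma adjusted p = 0.0216).

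Against morc-1 late the hrde-1 late animals were also higher in these genes. By limma 11 of 62 members rose and none fell, where 3.22% of all genes rose and 0.614% fell: nspd-4, nspd-5, nspd-6, nspd-9, nspd-10, spe-11, ssp-34, ssp-35, ssp-36, msd-4 and msp-50. The median log2 change was 2.60 over members and -0.08 over all genes, and in 59 of 62 both hrde-1 late libraries were above both morc-1 late libraries, against 21.8% of all genes. The largest call was nspd-4, at 2.08 and 2.74 FPKM in morc-1 late and 34.9 and 137 FPKM in hrde-1 late (log2 change 4.38 ± 0.79 SE, limma adjusted p = 0.0178). For spe-11 the change was 2.32 ± 0.42 (SE; limma adjusted p = 0.0184). No rise outlasted every omission of a single library: none of the 11 was left without either morc-1 late library or without hrde-1 late replicate 2, and without either WT late library 35 members rose. With equal library medians 2 members rose, and the 398 rises and 76 falls over all genes became 229 and 114. For the omissions of single libraries the shares of all genes called are not given here.

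In morc-1 late against WT late, 1 member rose, spe-41, and none fell, where 0.307% of all genes rose and 0.00808% fell. The median log2 change was 0.31 over members and 0.16 over all genes, and 46 of 62 changes were above 0. Libraries of the groups did not overlap upward in 2 members, against 30.2% of all genes. Over all genes 38 rose and 1 fell, or 62 and 11 with equal library medians. The sign of the median rested on 1 library: without WT late replicate 1 it was -0.77. Family sums show the same: msd at 38.5 and 44 FPKM in morc-1 late lay between 9.36 and 78.1 FPKM in WT late, and nspd at 88.2 and 129 FPKM lay between 37 and 276 FPKM.

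In the early generation sperm genes stood higher in both mutants than in WT by a smaller amount, and only spe-41 passed the test. In morc-1 early none of the 62 was called by limma, where 0.0727% of all genes rose; 2 members, spe-41 and spe-11, had an unadjusted p under 0.05, against 2.45% of all genes. The median log2 change was 0.87 over members and -0.02 over all genes, 60 of 62 changes were above 0, and in 49 members both morc-1 early libraries were above both WT early libraries, against 14.5% of all genes. In hrde-1 early 1 of 62 rose, where 0.808% of all genes rose, with a median of 0.97 over members and 0.01 over all genes, 59 changes above 0 and 47 members without overlap upward, against 16.4% of all genes. Between the 2 early mutants limma called no member (0.557% of all genes rose; 1 member with an unadjusted p under 0.05, against 2.37%) and the median difference was 0.11. Both early comparisons share the WT early libraries.

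In the 3 members named next the early mutant libraries were above those of WT, but no difference passed the test. For ssp-36 WT early read 1.64 and 0.608 FPKM, morc-1 early 1.68 and 4.20 and hrde-1 early 4.65 and 2.85 (hrde-1 log2 change 1.18 ± 0.44 SE, limma adjusted p = 0.783). For nspd-4 WT early read 6.70 and 4.27 FPKM, morc-1 early 10.2 and 11.1, and hrde-1 early 22.9 and 24 (hrde-1 log2 change 1.94 ± 0.79 SE, limma adjusted p = 0.886). For spe-11 the log2 changes were 0.95 in morc-1 and 0.94 in hrde-1, each with an adjusted p of 1 in limma.

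Between generations no member was called within a strain by limma, where 2.22% of all genes rose and 1.39% fell in WT, 0.372% and 0.0808% in morc-1 and 0.59% and 0.113% in hrde-1. The members' median log2 change from early to late was -0.40 in WT (all genes -0.37), -1.01 in morc-1 (-0.18) and 1.57 in hrde-1 (-0.22). In hrde-1, 57 of 62 members had both late libraries above both early ones, against 19.5% of all genes, and 22 had an unadjusted p under 0.05 with late higher, against 8.5%; without hrde-1 late replicate 2 the median was 0.72 (all genes -0.04). In morc-1, 45 of 62 had both late libraries below both early ones, against 33.5% of all genes, and 5 had an unadjusted p under 0.05 with late lower, against 7.09%, and 2 with late higher, against 5.35%. WT had 1 member each way at an unadjusted p under 0.05, against 8.1% higher and 25.3% lower, and its median became 0.71 without WT late replicate 1. The tests of whether a mutant's difference from WT changed between generations called no member by limma. For morc-1 this test called 0 of all 12378 genes, so the lack of a call says nothing about the members. For hrde-1, where 0.0162% of all genes were called upward, the median was 2.01 over members and 0.12 over all genes, and 9 members had an unadjusted p under 0.05, against 5.32%. This median was 0.68 without WT late replicate 1 (all genes 0.33), 1.00 without hrde-1 late replicate 2 (0.39) and 3.25 without WT late replicate 2 (-0.08). For morc-1 the median was -0.45 over members and 0.14 over all genes. The members' median was -1.64 when WT late replicate 1 was left out and 0.72 when replicate 2 was. In each direction 1 member had an unadjusted p under 0.05, against 7.33% of all genes higher and 2.39% lower. Late libraries also list the yolk protein genes vit-2 and vit-6 at 0 in all 6, which can be a failed estimate, so early and late values may differ in how they were made.

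One sperm gene departed from the rest by rising in both mutants. The gene spe-41, also known as trp-3, encodes a TRPC calcium channel of the sperm needed for fertilization. Its level was 1.62 and 1.401 FPKM early and 1.08 and 0.749 late in WT, 4.59 and 5.80 early and 12.5 and 7.97 late in morc-1, and 13.04 and 13.07 early and 19.9 and 13.6 late in hrde-1. All 8 mutant libraries were above all 4 WT libraries, and neither WT late replicate 1 nor hrde-1 late replicate 2 stood apart in it. The log2 change from WT was 2.53 ± 0.33 in morc-1 late, 2.49 ± 0.33 in hrde-1 early and 3.20 ± 0.33 in hrde-1 late (SE; limma adjusted p = 0.0137, 0.00404 and 5.53e-04), and 1.30 in morc-1 early did not pass (limma adjusted p = 0.730). The morc-1 late call was lost whenever 1 of its own 4 libraries was left out, and the hrde-1 early call without WT early replicate 2 or hrde-1 early replicate 2. The hrde-1 late call held in each omission.

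Small RNA values were given for 2 of the 62 members, spe-41 and spe-15, and for fer-1; in all, 1416 of the 12378 genes appear in the small RNA table. These values are reads per gene divided by a size factor per library, from 16 libraries (3 each of WT and morc-1 and 2 of hrde-1 per generation; the late WT and morc-1 libraries are F4 or F5). For spe-41 WT early read 418, 448 and 299, WT late 329, 389 and 231.5, morc-1 early 476.5, 553 and 338, and morc-1 late 384, 435 and 319. The hrde-1 libraries read 28.2 and 25.3 early and 41.2 and 42.4 late, below every other library. Of 2349 features tested, 1450 early and 1477 late had both hrde-1 libraries below all WT libraries of that generation. On the log2(value + 1) scale spe-41 fell by 3.79 in hrde-1 early and by 2.86 in hrde-1 late (limma adjusted p = 6.01e-08 and 5.54e-07), where 42% and 53% of all 2349 features tested fell. That background depends on the scaling: 300 rose and 986 fell early and 431 and 1246 late, but 793 and 496 and 840 and 684 under quantile normalization. In morc-1 the changes of 0.22 early and 0.28 late did not pass, and the libraries overlapped those of WT.

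For spe-15 WT small RNA libraries read 184, 206 and 114 early, then 150.004, 177 and 128 late, and those of morc-1 43.3, 134 and 75.6 early, then 110.2, 122 and 69.2 late. The hrde-1 libraries read 32.3 and 36.3 early and 63.0 and 72.4 late. They were below all WT libraries, as were those of 1450 features early and 1477 late among the 2349 tested. The gene fell by 2.22 early and by 1.14 late on the log2 scale (limma adjusted p = 3.88e-04 and 0.0199), where 42% and 53% of features tested fell. The late call was lost under edgeR, DESeq2 and quantile normalization (log2 change -0.47, -0.25 and -0.01; adjusted p = 0.145, 0.501 and 0.983). The change of -1.09 in morc-1 early did not pass (limma adjusted p = 0.0525), and the lowest of its libraries holds only 54599 reads, of which 2 were assigned to spe-15. The mRNA of spe-15 did not pass in any comparison, at 4.67 FPKM or less in WT late and 6.13 and 7.34 FPKM in hrde-1 late.

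**Figure D4:**
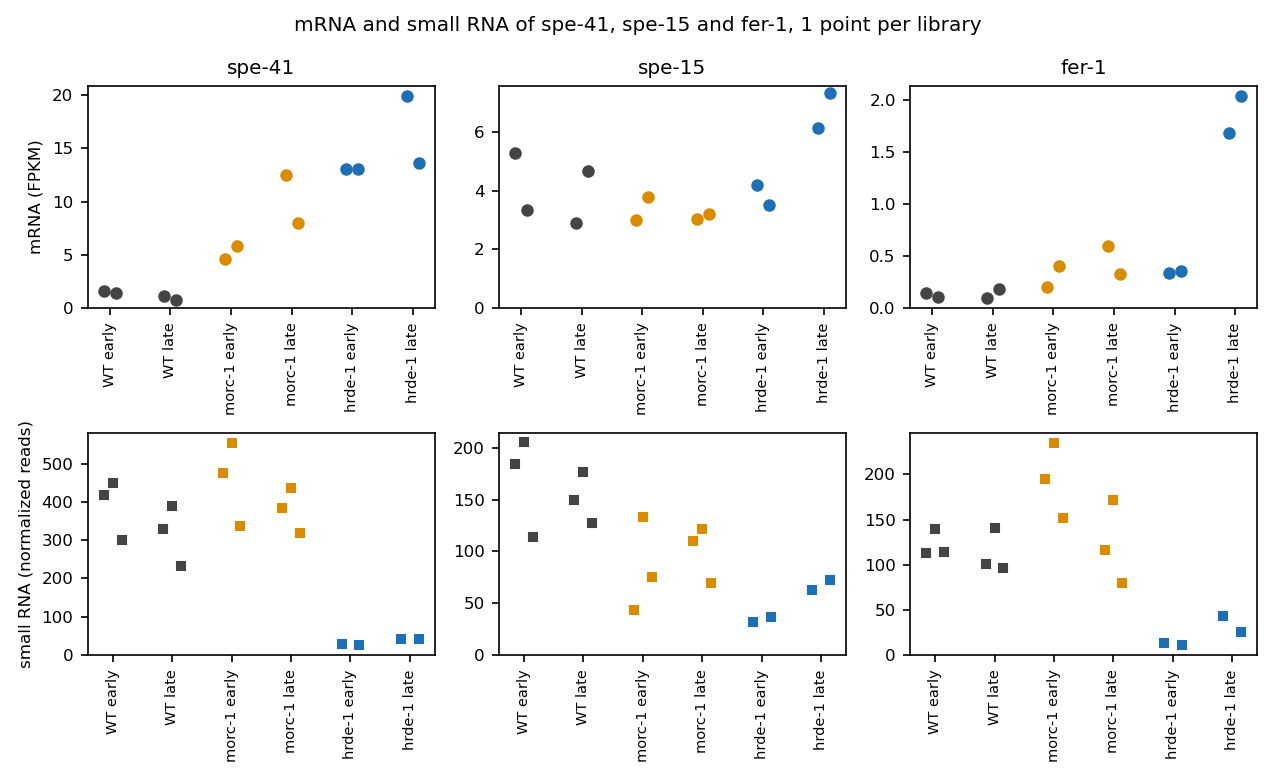
mRNA (upper row, FPKM) and small RNA (lower row, size-factor normalized reads) of spe-41, spe-15 and fer-1 in each library, by strain and generation; points are libraries. For spe-41 the hrde-1 libraries are the highest in mRNA, at 13.04 to 19.9 FPKM, and the lowest in small RNA, at 25.3 to 42.4.

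The gene fer-1, which encodes a dysferlin family protein of membranous organelle fusion, is no member because of its low mRNA level, and was described after its values were seen. Its small RNA read 113, 139.7 and 114 early and 100.4, 141 and 96.1 late for WT, 195, 235 and 152 early and 116, 172 and 80.0 late for morc-1, and 12.9 and 11.5 early and 42.9 and 25.6 late for hrde-1, whose libraries were below all others. The value of 195 rests on 9 reads, and neither morc-1 difference from WT passed (limma adjusted p = 0.132 early and 0.838 late). The gene fell by 3.21 early and by 1.71 late in hrde-1 against WT on the log2 scale (limma adjusted p = 1.90e-06 and 2.92e-04), where 42% and 53% of features tested fell. From early to late in hrde-1 it rose by 1.37 (limma adjusted p = 0.0105), where 12.3% of features tested rose.

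Other genes of sperm, from a list drawn up with earlier results of these data known, moved like the families. Of 13 tested, 9 rose in hrde-1 late against WT late and none fell, with a median log2 change of 2.45: smz-1, smz-2, spch-1, spch-3, htas-1, comp-1, alg-3, alg-4 and gska-3. Over all genes 7.21% rose and 1.42% fell, and the shares under the omissions that follow are not given here. Without WT late replicate 1, 4 of the 13 rose (median 1.50), as did 4 without hrde-1 late replicate 2 (2.08) and 4 without hrde-1 late replicate 1 (2.60), and with equal library medians 2 rose (2.19). Leaving out both WT late replicate 1 and hrde-1 late replicate 2 left 2 rises and 1 fall (median 1.43). The genes alg-3 and alg-4 encode Argonaute proteins of spermatogenesis and smz-1 a PDZ domain protein of sperm. The level of smz-1 in the late generation was 4.44 and 7.70 FPKM in WT, 9.41 and 9.38 in morc-1 and 33.5 and 40.7 in hrde-1, so that the groups did not overlap (hrde-1 late against WT late 2.46 ± 0.36 SE on the log2 scale, limma adjusted p = 0.00414). The level of ife-1, at 472 ± 232 FPKM in WT late and 299 ± 104 FPKM in hrde-1 late (SD, n = 2 each), went against the list without passing. None of the 13 was called in morc-1 early, morc-1 late or hrde-1 early (medians 0.52, 0.55 and 0.73). Over all genes only 0.0727%, 0.307% and 0.808% rose there, so the lack of a call among 13 says little. Against morc-1 late, where 3.22% of all genes rose, 4 of the 13 rose. That last count was 0 without either morc-1 late library, without hrde-1 late replicate 2 or with equal library medians, and 8 without either WT late library. Of 6 spe genes tested that only the supplied gene table names, described after their values were seen, 3 rose and none fell: spe-18, spe-46 and spe-54 rose in hrde-1 late (log2 changes 2.87, 2.22 and 1.54, limma adjusted p = 0.00507, 0.0123 and 0.0376). Without WT late replicate 1 or hrde-1 late replicate 2, spe-46 and spe-54 did not pass and spe-18 did (limma adjusted p = 0.0303 and 0.0385). The level of spe-47 was 1.18 and 0.889 FPKM in WT late and 2.88 and 5.02 in hrde-1 late, and that of spe-48 was 32.0 and 14.9 against 37.4 and 17.2 FPKM; neither passed (limma adjusted p = 0.0708 and 0.901). The gene spe-44, which encodes a transcriptional regulator of the spermatogenesis program, stood at 8.36 ± 3.83 FPKM in WT late and 8.05 ± 2.46 FPKM in hrde-1 late (SD, n = 2 each) and did not pass (limma adjusted p = 0.996).

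Regulators of germline sex changed in a few cases. Of 19 listed, 3 rose in hrde-1 late against WT late and none fell, where 7.21% of all genes rose. The median was 0.24, and -0.02 with equal library medians. The 3 were fog-3, fog-1 and her-1, which promote sperm or male fate, whereas fem-1, fem-2, fem-3 and fog-2, which do so too, did not pass and overlapped between groups (log2 changes 0.13, 0.08, 0.31 and 0.10). The gene fog-3, needed for germ cells to become sperm, read 2.11 and 1.18 FPKM early and 0.933 and 1.07 late in WT, 4.85 and 2.72 early and 6.63 and 6.12 late in morc-1, and 4.27 and 3.93 early and 32.6 and 26.6 late in hrde-1. Its 2 hrde-1 late libraries were alike and far above the others, without the gap between replicates seen in MSP genes (log2 change 3.93 ± 0.33 SE, limma adjusted p = 1.61e-04), and the call held without WT late replicate 1 and without hrde-1 late replicate 2 (limma adjusted p = 0.00173 and 0.00185). It also rose against morc-1 late (2.05, limma adjusted p = 0.0123), a call lost without either morc-1 late library (0.0918 and 0.100) or without hrde-1 late replicate 2 (0.0571). Its rise from early to late within hrde-1 (2.58, limma adjusted p = 0.00607) was lost without either hrde-1 early library (0.0649 and 0.0714). The gene fog-1, which acts beside it, went from 7.14 and 5.31 to 20.1 and 17.3 FPKM (limma adjusted p = 0.0175), and her-1, whose secreted product directs male fate, from 0 and 3.17 to 26 and 16.4 FPKM (limma adjusted p = 0.0139). The fog-1 call was lost without WT late replicate 2 or either hrde-1 late library (limma adjusted p = 0.0733, 0.0799 and 0.0568) and with the 2 groups alone (0.309). That of her-1 was lost without WT late replicate 1 (log2 change 2.38, limma adjusted p = 0.0769), without either hrde-1 late library (0.0873 and 0.0554), with equal library medians (0.0545) and with the 2 groups alone (0.0826). In morc-1 her-1 stood at 14.2 and 3.16 FPKM early and 13.8 and 14.7 FPKM late, which did not pass.

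**Figure D5:**
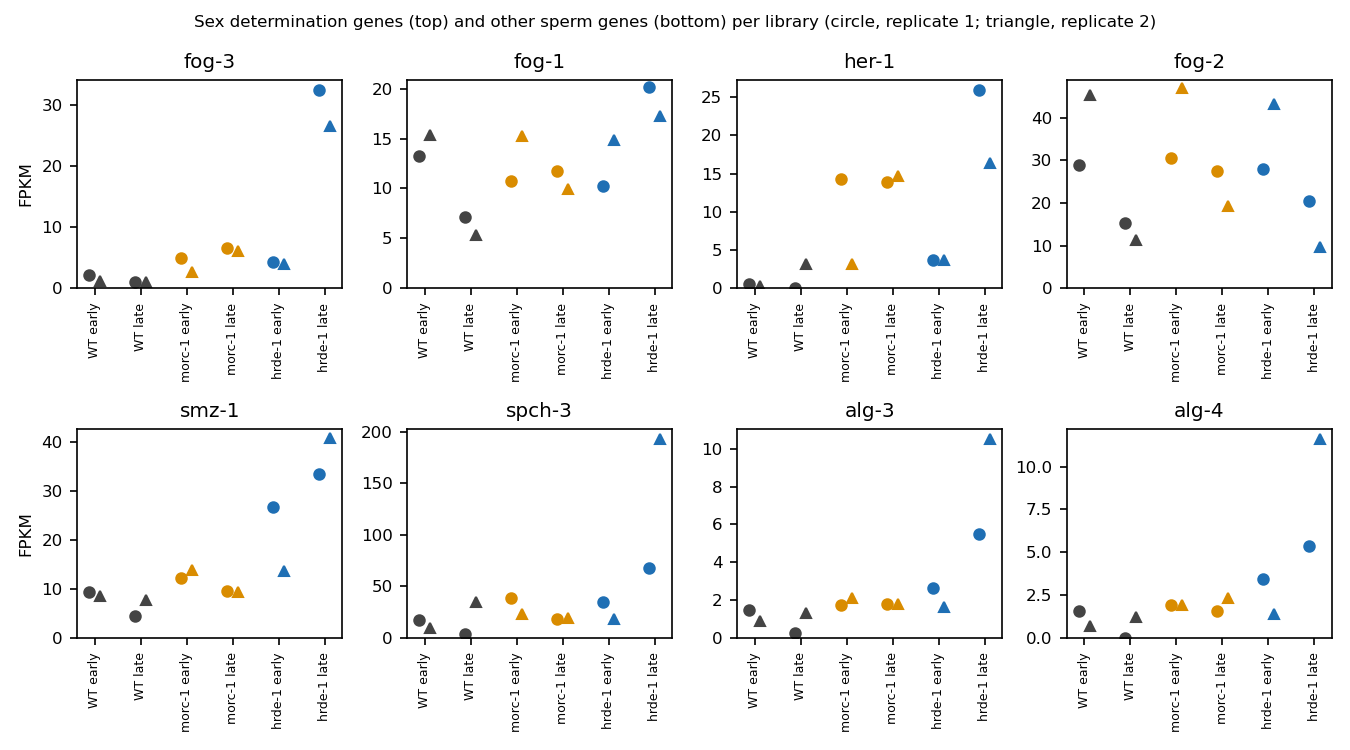
FPKM of 4 regulators of germline sex (fog-3, fog-1, her-1, fog-2) and 4 other sperm genes (smz-1, spch-3, alg-3, alg-4) in the 12 mRNA libraries, by strain and generation; each point is 1 library. For fog-3 both hrde-1 late libraries, at 32.6 and 26.6 FPKM, lie above the other 10, which reach 6.63 FPKM.

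Markers of other cells changed in some cases. In hrde-1 late against WT late, where 7.21% of all genes rose and 1.42% fell, 1 of 22 oocyte genes rose (perm-4), none of 22 genes shared by the germ line was called, and of the 2 male genes tested her-1 rose and swm-1 did not. The summed oocyte genes were 5601 and 7240.4 FPKM in WT late and 8578 and 13206 FPKM in hrde-1 late, with a median log2 change of 0.56 and 20 of 22 above 0. Without the eggshell genes perm-2 and perm-4, which held 7483 FPKM of the highest sum, they were 3619 and 5253 against 6095 and 5722 FPKM. The summed male genes ranged from 56.5 to 85.3 and from 91.0 to 118 FPKM. No muscle gene of 11 and no neuron gene of 10 was called. Of 18 intestine genes 5 fell, vit-5, cpr-1, cpr-4, cpr-5 and ifb-2, of which vit-5 is listed at 0 in hrde-1 late. Of 10 molting genes 3 fell (dpy-7, dpy-14 and ptr-4). The summed molting genes were 150.1 and 267 FPKM among WT late libraries, 145 and 193 in morc-1 late, and 35.7 and 29.6 in hrde-1 late, against 50.9 and 87.2 in WT early, 38.4 and 57.1 in morc-1 early and 34.4 and 41 in hrde-1 early. One gene, dpy-14, carried the higher sums of WT late and morc-1 late: without it they were 58.3 and 47.4 FPKM in WT late and 61.6 and 49.2 in morc-1 late, which overlapped the early WT libraries at 36.6 and 52.5, while hrde-1 late held 29.6 and 18.2 FPKM. From early to late in WT none of the 10 was called, and 5 changes were above 0. Oocyte genes were also higher in morc-1 late than in WT late, with a median log2 change of 0.90 and 21 of 22 above 0. In hrde-1 late against morc-1 late their median was -0.33, with 2 of 22 above 0. Between WT early and WT late 6 of the 22 oocyte genes fell, where 1.39% of all genes fell. The part of developmental stage in the sperm gene differences was not tested.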

How the data were processed

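Processed tables were used, and no reads were realigned. The deposited mRNA table is labelled as normalized counts. Its values were not whole. Their low end was higher in the shortest genes (0.0735 at a median span of 767 bp) than in the next (0.0340 at 1425 bp). It was nearly flat from there on, at 0.0329 for a median span of 6930 bp. The values were assumed to be FPKM made by the authors before deposit. The mRNA table was made with Trimmomatic 0.35 and TopHat2 (version not stated), per the submitters' processing notes, from a stranded TruSeq kit per the labels' protocols. The genome build, annotation, strand setting of the counting and treatment of reads that match several genes were not given in the sources used here. Small RNA was deposited as a signal, reads per feature divided by a size factor (DESeq2, per the submitters' processing notes). Its values were whole multiples of a step within 0.02 reads in 100% of cases, which gave depths of 54599 to 2274591 reads. Of the series' 79 samples, chromatin libraries were not used here.

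The mRNA model (limma 3.58.1, R 4.3.3) took log2(FPKM + 1) of the 12378 genes that averaged 1 FPKM or more, with 6 group means over 12 libraries and a variance trend. Small RNA was fitted on log2(value + 1) over 16 libraries for 2349 features with a mean of at least 10. Benjamini-Hochberg adjustment ran over all features tested, with a threshold of 0.05. On recovered small RNA reads, edgeR 4.0.16 and DESeq2 1.42.0 were alternatives, as were other normalizations, pseudocounts, filters, replicate blocks and leaving out each library. The fits were also run on simulated data with noise drawn independently for each gene. That simulation did not mimic whole libraries in which the members shift together, so it cannot speak to those shifts. The lists of other sperm, germline sex, oocyte, shared germline, male, intestine, muscle, neuron and molting genes were described by counts. Genes were named by rule: the 3 most abundant of each family, all spe and fer members with a known role, the 4 smallest p-values among calls of each comparison, the 3 lowest and 3 highest changes in hrde-1 late against WT late, the 3 genes on either side of the FPKM minimum, and morc-1 and hrde-1. One gene that this rule takes in is not reported here by name. List genes were named after their values were seen. The members and lists were chosen with earlier results of these data known.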

Additional observations from a re-analysis of the deposited data

Results flagged for a closer look

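The small RNA of fer-1 fell in hrde-1 against WT in both generations, by 3.21 early and by 1.71 late on the log2(value + 1) scale, where 42% and 53% of features tested fell. The difference between these effects was tested as an interaction of strain and generation: it was 1.50 (limma adjusted p = 0.0411), where 10.3% of all features tested rose in that interaction. The mRNA of fer-1 stayed under the minimum of 1 FPKM on average.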

How the results depend on the processing

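Between hrde-1 late and WT late, where 27 members rose, the count was 9 under quantile normalization, 8 with equal medians, 12 among genes of at least 10 FPKM, 1 with only the compared groups, and 6 to 53 leaving out 1 library. Against morc-1 late the 11 rises became 4, 2, 1 and 1 under the same settings, 3 with a pseudocount of 0.1, 21 with one of 5, and 0 to 35 leaving out 1 library. The 1 rise (spe-41) in morc-1 late against WT late became 0 with a pseudocount of 5, at 10 FPKM or with only the compared groups, and that in hrde-1 early 0 at 10 FPKM or with only the compared groups (each 0 to 1 leaving out 1 library). The 0 calls between WT generations became 1 under quantile normalization, equal medians or 10 FPKM (0 to 7 leaving out 1 library, 7 without WT late replicate 2); those between hrde-1 generations 0 to 7 (7 without hrde-1 late replicate 1), and those in the hrde-1 interaction 0 to 8 (8 without WT late replicate 2). Medians over members changed sign in morc-1 late against WT late (0.31; -0.77 to 1.58 leaving out 1 library, lowest without WT late replicate 1), between early mutants (0.11; -0.028 with equal medians and -0.048 to 0.21 leaving out 1 library), between WT generations (-0.40; -1.78 to 0.71, highest without WT late replicate 1) and in the morc-1 interaction (-0.45; -1.64 to 0.72, highest without WT late replicate 2). For small RNA, hrde-1 late against WT late went from 2 calls to 1 under quantile normalization, edgeR and DESeq2 (1 to 2 leaving out 1 library), and hrde-1 early against morc-1 early from 2 to 1 under quantile normalization (1 to 2). From 0 calls, morc-1 late against WT late went to 1 under quantile normalization and DESeq2, morc-1 early 0 to 1 leaving out 1 library, hrde-1 late against early to 1 under quantile normalization and 2 under edgeR and DESeq2 (0 to 1 leaving out 1 library), and the hrde-1 interaction to 1 and 2 likewise. The cause of these moves was not tested. Shares of all genes called under each setting are not set beside these counts, so the counts alone do not describe the members. Whether replicate numbers pair libraries is not given by the labels: in mRNA, same-numbered libraries' deviations correlated at 0.322 to 0.450 within a generation and at -0.221 to 0.0126 across generations. With the replicate number as a block within each generation, 52 members rose in hrde-1 late against WT late (all 27 among them, 11.9% of all genes) and 50 against morc-1 late (7.56% of all genes); as a block over all libraries the counts were 37 and 15. Between same-numbered late libraries the median over members, hrde-1 minus WT, was 3.40 for replicate 1 and 2.46 for replicate 2, each with 61 of 62 above 0. For small RNA the block gave 1 call in morc-1 early against WT early, in hrde-1 late against early and in the hrde-1 interaction; other counts kept their value under the block. Of other values, no called change of a named gene changed sign when a library was left out or another setting was used. Under settings other than omissions, such changes stayed past the threshold in 335 cases and kept only their direction in 133. These cases pool mRNA and small RNA, fer-1 included. Many calls were lost when a library of the compared groups was left out, as given above for each comparison.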
